A study of Mus musculus with 6 samples.

Results

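The 10 genes described here code for the best known proteins of the BCL2 family, the switch that decides whether a cell opens its mitochondria and dies. They were chosen by name (Bcl2, Bcl2l1, Mcl1, Bax, Bak1, Bcl2l11, Bbc3, Pmaip1, Bid and Bad) out of 24940 genes in an RNA-seq table, and all 10 were found and passed the filter of a mean of 0.5 RPKM, as did 11595 genes in all. RPKM counts the reads of a transcript for each kilobase of its length and each 1000000 mapped reads, so levels given in RPKM can be set side by side between genes. Bone marrow-derived macrophages (BMMs), the precursors of osteoclasts, were grown for 3 days in 3 conditions with 2 libraries each, and all 6 libraries received M-CSF at 30 ng/mL, the cytokine on which these cells depend. The −R libraries received M-CSF alone, the +R libraries also received RANKL at 100 ng/mL, the cytokine that drives osteoclast formation, and the R+LE libraries received RANKL and LE, a methanol extract of the leaves of *Abeliophyllum distichum*, at 10 μg/mL. The labels give C57BL/6 mice of 6 to 8 weeks as the source, whereas the methods of the study name ICR mice. Neither source names a transgene or a deletion. Neither source says whether the 2 libraries of a condition came from separate animals or cultures, so the p-values below measure the spread between these libraries, which may be technical.

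Proteins of the family fall into 3 roles. The survival members (BCL2, BCL-XL from Bcl2l1, and MCL1), called guardians here, hold the effectors BAX and BAK in check. Once released, the effectors form pores in the outer mitochondrial membrane and let cytochrome c out. The BH3-only proteins carry the stress signal: BIM (Bcl2l11), PUMA (Bbc3), NOXA (Pmaip1), BID and BAD bind guardians, and some of them also activate the effectors directly. BCL-XL is known as a survival factor of osteoclasts, and BIM as a main trigger of death when osteoclasts or macrophages lose their cytokines. These are facts about proteins, while the values below are transcript levels.

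The promoters of the 2 guardians that fell and of a BH3-only gene that rose are shown as examples. Each sequence is the 250 bases before a start site in RefSeq (GRCm38.p6), written 5′ to 3′ on the gene's own strand, and capitals mark the letters of a searched motif. Each motif was searched on both strands: the GC box GGGCGG, present in 32.7% of 32851 promoters of this length, the E-box CACGTG (6.02%), the STAT motif TTCNNNGAA (7.02%), the AP-1 motif TGANTCA (6.75%), the TATA box TATAAA (12.4%), the PU.1 motif GAGGAAG (10.6%) and the NF-κB motif GGGNNTTCC (4.98%). Bcl2 is given at chr1:106714291-106714540 on the minus strand, Bcl2l1 at the start used for counting at chr2:152831729-152831978 and at a second start, 1011 bases downstream, at chr2:152830718-152830967, both on the minus strand, and Bbc3 at chr7:16309333-16309582 on the plus strand.
Bcl2: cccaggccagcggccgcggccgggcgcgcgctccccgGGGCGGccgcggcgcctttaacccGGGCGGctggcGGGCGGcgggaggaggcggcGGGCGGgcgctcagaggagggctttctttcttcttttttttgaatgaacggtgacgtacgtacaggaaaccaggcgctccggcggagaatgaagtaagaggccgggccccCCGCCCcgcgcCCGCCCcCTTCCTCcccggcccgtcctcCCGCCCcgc
Bcl2l1, counted start: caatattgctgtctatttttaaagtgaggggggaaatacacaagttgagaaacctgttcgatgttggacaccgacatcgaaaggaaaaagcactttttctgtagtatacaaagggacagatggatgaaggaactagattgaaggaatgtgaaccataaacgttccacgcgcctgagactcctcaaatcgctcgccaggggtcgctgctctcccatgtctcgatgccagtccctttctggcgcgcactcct
Bcl2l1, second start: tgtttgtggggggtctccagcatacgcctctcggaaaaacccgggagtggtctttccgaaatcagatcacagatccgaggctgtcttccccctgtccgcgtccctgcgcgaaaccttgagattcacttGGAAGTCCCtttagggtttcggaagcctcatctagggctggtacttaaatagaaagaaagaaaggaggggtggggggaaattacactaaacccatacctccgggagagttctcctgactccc
Bbc3: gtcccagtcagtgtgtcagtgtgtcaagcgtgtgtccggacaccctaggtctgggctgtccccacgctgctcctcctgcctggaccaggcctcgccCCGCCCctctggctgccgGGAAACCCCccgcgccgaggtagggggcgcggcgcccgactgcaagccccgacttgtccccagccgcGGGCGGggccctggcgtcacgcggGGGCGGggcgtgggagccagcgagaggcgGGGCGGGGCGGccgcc

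The Bcl2 window held 7 GC boxes and 1 PU.1 motif without overlap, and 74.8% of its bases were G or C, against a median of 52.4% over all promoters. The window before the counted start of Bcl2l1 held none of the 7 motifs at 47.6% G or C. The window before the second start of Bcl2l1 held 1 NF-κB motif, whose first base lies 122 bases before that start, at 53.2% G or C. The Bbc3 window held 5 GC boxes, of which 1 pair overlaps, and 1 NF-κB motif, at 76.4% G or C. A further RefSeq start of Bcl2l1, 3239 bases downstream of the counted start, is not shown. The same holds for starts of Bbc3 at 678 and 848 bases downstream of its counted start. A match is a run of letters and not a bound site. RefSeq promoters were taken for 9 of the 10 genes, since chromosome 18, where Pmaip1 lies, was left out of this step.

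The libraries held 29390495 to 34846825 mapped reads, of which 74.25% to 80.69% lay on genes of the table. The share of those gene reads on Rn45s, the ribosomal RNA precursor, was 4.97% and 6.83% in −R and between 10.9% and 13.5% in the other 4 libraries. The macrophage identity of the cells was checked by 6 marker genes (Csf1r, Adgre1, Cd68, Itgam, Fcgr1, Mertk), whose summed level was 1395 and 1502 RPKM in −R, 902 and 792 RPKM in +R, and 855 and 704 RPKM in R+LE. Cd68 and Csf1r make up most of this sum: 5 of the 6 markers fell in +R against −R, all but Itgam, and in R+LE against +R 0 fell and Mertk rose by 0.53 on the log2 scale (adjusted p = 0.0461), with a list median of 0.18. The 10 osteoclast markers summed to 43.4 and 45.0 RPKM in −R, 2222 and 1951 RPKM in +R, and 402 and 346 RPKM in R+LE. The 5 cell division markers summed to 89.2 and 114 RPKM in −R and to between 217 and 246 RPKM in the other libraries. All 5 erythroid markers were at 0 in every library, as were 3 of 4 mast cell markers, while the 7 neutrophil markers summed to 17.2 and 15.3 RPKM in −R and to at most 2.53 RPKM elsewhere. The 4 megakaryocyte markers summed to 119.9 and 124.1 RPKM in −R and to between 6.00 and 18.3 RPKM elsewhere, nearly all of it Pf4, while Itga2b was at 0.070 RPKM or less. The 6 stromal and osteoblast markers summed to between 8.62 and 17.6 RPKM in all libraries. In bulk RNA, fewer cells of a type and less RNA per cell cannot be told apart, and the part of these shifts in cell make-up in the results below was not tested.

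Every gene was tested on log2(RPKM + 0.5) with limma, and a gene is said to have risen or fallen where its p, adjusted over all 11595 genes, was below 0.05. Of the 10 family genes, 5 fell and 2 rose in +R against −R, where 21.5% of all tested genes fell and 23.9% rose. The count of risen family genes is near that background, which was 15.2% risen without −R replicate 1. The 5 that fell were Bcl2, Bcl2l1, Bak1, Bcl2l11 and Bid, the 2 that rose were Bbc3 and Pmaip1, and Mcl1, Bax and Bad did not pass. The median log2 fold change of the 10 genes was -0.50, beside 0.05 over all tested genes. Changes of at least 2-fold were found for 3 of them (Bcl2, Bcl2l1, Pmaip1), beside 15.5% of all tested genes. Each of the 7 genes that passed did so under all 17 other settings that were tried.

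**Figure D1:**
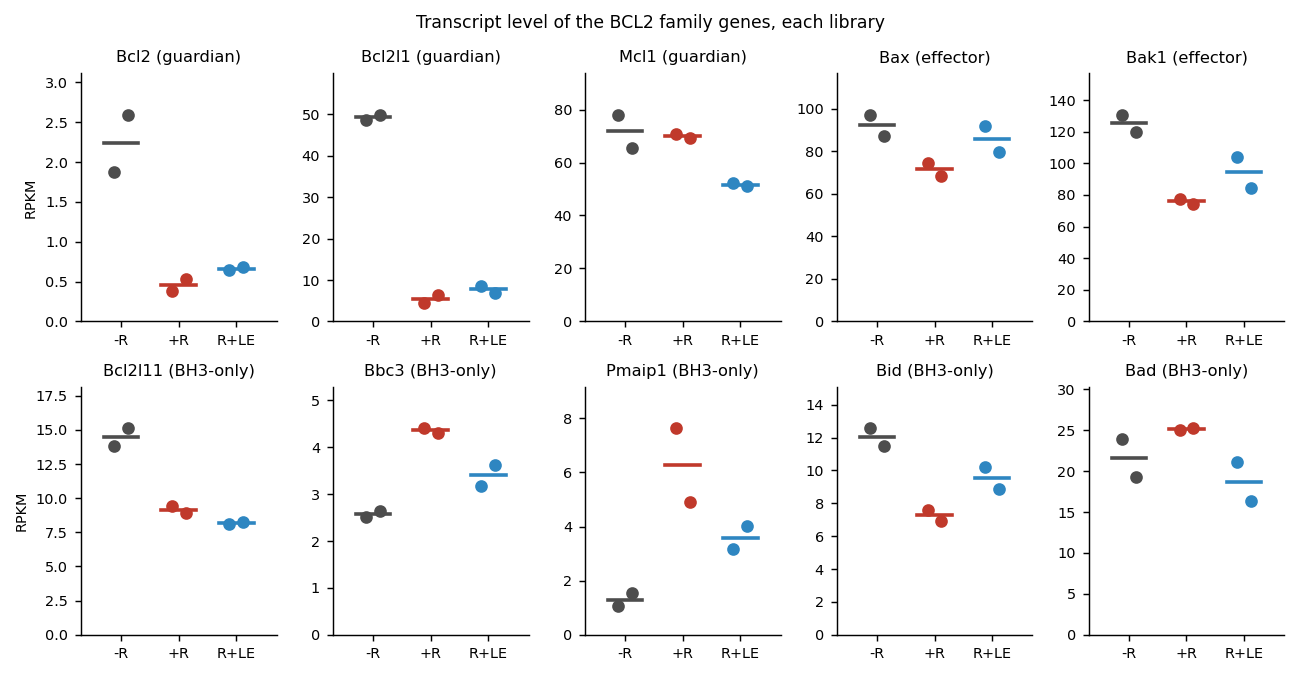
Level of each of the 10 BCL2 family genes in RPKM (vertical axes, each from 0) in the 2 libraries of −R, +R and R+LE; points are libraries and lines are group means. Bcl2l1 stands at 48.7 and 50.0 RPKM in −R and at 8.55 RPKM or less in the 4 libraries with RANKL, whereas Mcl1 stays between 51.0 and 78.1 RPKM in all 6.

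Among the guardians, Bcl2l1 (chr2:152780664-152831728, minus strand, mm10) showed the largest difference of the 10 genes. Its level was 48.7 and 50.0 RPKM in −R, 4.50 and 6.28 RPKM in +R, and 8.55 and 6.97 RPKM in R+LE. No RANKL-treated library came near the −R libraries, and both R+LE libraries lay above both +R libraries. The transcript fell by 3.10 on the log2 scale in +R against −R (SE 0.16, adjusted p = 6.66e-10), and the ratio of the group means in RPKM was 0.109. Leaving out any 1 library kept this difference between -3.32 and -2.88. The span of the counted model (2416 nucleotides, 3 exons) holds all annotated protein-coding transcripts of the gene. Reads were counted only on the exons of that model. The long and short splice forms, whose proteins have opposite roles, were not told apart.

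Bcl2, the founding survival gene of the family, was the lowest of the guardians in every library. Its level was 1.88 and 2.60 RPKM in −R, 0.384 and 0.537 RPKM in +R, and 0.642 and 0.681 RPKM in R+LE. These values rest on 117 and 192 reads in −R, 25 and 35 reads in +R, and 43 and 44 reads in R+LE, the fewest of any member in +R and R+LE. Bcl2 fell by 1.50 on the log2 scale in +R (SE 0.21, adjusted p = 3.12e-05). The added 0.5 RPKM compresses such low values, and the ratio of the group means was 0.206, or 4.85-fold lower. The counted stretch (chr1:106712165-106714290, minus strand) is a single exon of 2123 nucleotides, and 92.7% of it is exon 1 of the 2-exon transcript Bcl2-201, whose second exon of 5221 nucleotides was not counted. Lymphocytes are known to be rich in Bcl2: the 4 B cell markers summed to 1.94 and 1.55 RPKM in −R and to at most 0.124 RPKM in the other libraries, the T cell markers summed to at most 0.802 RPKM with Cd3e at 0 in every library, and the part of lymphocytes in the Bcl2 values was not tested.

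Mcl1, a short-lived guardian that NOXA targets, was the most abundant guardian (chr3:95658721-95663178, plus strand). Its level was 78.1 and 65.4 RPKM in −R, 70.7 and 69.2 RPKM in +R, and 52.2 and 51.0 RPKM in R+LE. The +R libraries lay within the range of the −R libraries, and the R+LE libraries lay below all 4 others. The log2 difference of +R against −R was -0.03 with a 95% confidence interval from -0.34 to 0.28 (adjusted p = 0.885), and its sign turned to 0.05 when depth was taken from gene reads without Rn45s.

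Since Bcl2l1 fell and Mcl1 did not pass the test, the make-up of the guardian transcripts differed between the conditions. Bcl2l1 supplied 37.8% and 42.4% of the summed RPKM of the 3 guardians in −R, 5.95% and 8.26% in +R, and 13.9% and 11.9% with LE. The share of Mcl1 was 60.7% and 55.4% in −R, 93.5% and 91.0% in +R, and 85.0% and 86.9% with LE. The sum itself was 128.6 and 118 RPKM in −R, 75.6 and 76.0 RPKM in +R, and 61.4 and 58.6 RPKM in R+LE. These shares are descriptions of the libraries and were given no test.

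**Figure D2:**
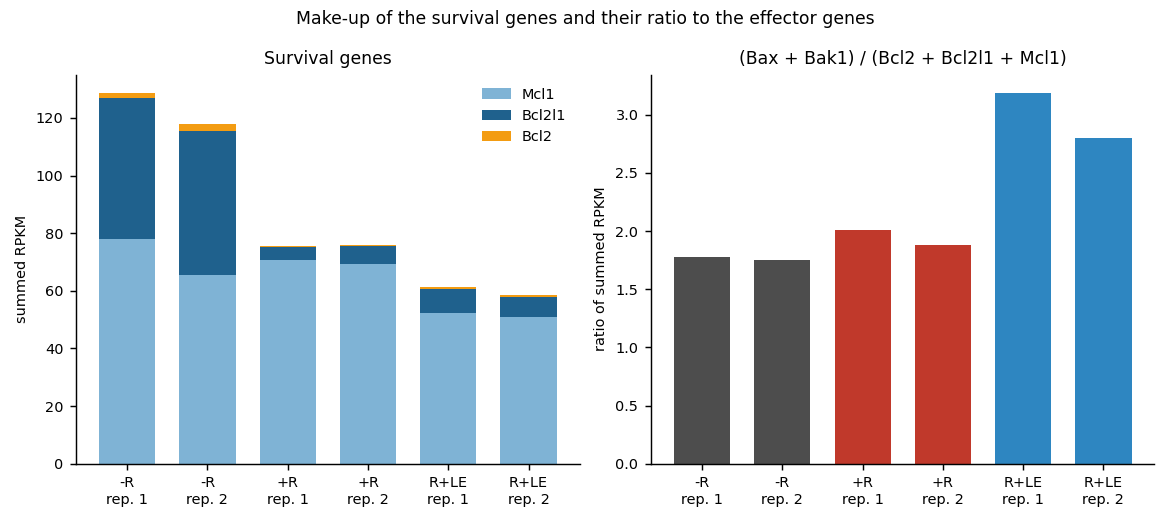
Left, summed RPKM of Mcl1, Bcl2l1 and Bcl2 in each library (stacked bars); right, summed RPKM of Bax and Bak1 divided by that of the 3 guardians in each library, a ratio without unit. The guardian sum is 118 RPKM or more in −R and 76.0 RPKM or less elsewhere, and the ratio is 3.19 and 2.80 in R+LE against 2.01 or less in the other 4 libraries. Sum and ratio were given no test.

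The effectors Bax and Bak1 were the most abundant members in −R. Bak1 (chr17:27019812-27028627, minus strand), whose protein sits in the mitochondrial membrane, was at 131 and 120.0 RPKM in −R, 77.7 and 74.2 RPKM in +R, and 104 and 84.7 RPKM in R+LE. The 3 conditions did not overlap, with R+LE in between. Bak1 fell by 0.72 on the log2 scale in +R (SE 0.16, adjusted p = 0.00145). Its counted exons share 19.8% of their bases with Ggnbp1 on the other strand, which was at 0.600 RPKM or less in every library.

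Bax (chr7:45461695-45466898, minus strand), which moves to mitochondria upon activation, was at 97.3 and 87.1 RPKM in −R, 74.4 and 68.6 RPKM in +R, and 91.7 and 79.6 RPKM in R+LE. Both +R libraries were the lowest, and −R and R+LE overlapped. The log2 difference of +R against −R was -0.36 (SE 0.15) and did not pass (adjusted p = 0.0618), though it passed under 8 of the 17 other settings, including without R+LE replicate 1 (adjusted p = 0.0179) and without R+LE replicate 2 (adjusted p = 0.0178). Of the bases of its counted exons, 22.1% are shared on the same strand with the gene model Gm45808. The summed effectors stood to the summed guardians as 1.77 and 1.75 in −R (ratio of RPKM), whereas the ratio was 2.01 and 1.88 in +R, and with LE it was 3.19 and 2.80. This ratio was given no test, and Bax, Bak1, Bcl2, Bcl2l1 and Mcl1 did not pass in R+LE against +R.

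The BH3-only genes moved in both directions. Pmaip1, which codes for NOXA, the partner that binds MCL1, had the largest rise of the 10 genes. Its level was 1.05 and 1.55 RPKM in −R, 7.65 and 4.92 RPKM in +R, and 3.16 and 4.02 RPKM in R+LE (82 and 143, 622 and 400, and 264 and 324 reads). The 3 conditions did not overlap, and the +R libraries differed from each other more than those of the other conditions. Pmaip1 rose by 1.90 on the log2 scale in +R (SE 0.20, adjusted p = 2.15e-06), and the ratio of the group means was 4.83. It lies at 66458604 to 66465558 on chromosome 18, on the plus strand. Mcl1 exceeded Pmaip1 by 74.2 and 42.2 times in −R, by 9.25 and 14.1 times in +R, and by 16.5 and 12.7 times with LE, as ratios of RPKM.

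Bbc3, which codes for PUMA, a p53 target that binds every guardian, was at 2.50 and 2.65 RPKM in −R, 4.42 and 4.32 RPKM in +R, and 3.18 and 3.62 RPKM in R+LE (chr7:16309583-16318334, plus strand). The conditions did not overlap. It rose by 0.66 on the log2 scale in +R (SE 0.15, adjusted p = 0.00194).

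Bcl2l11, which codes for BIM, was at 13.8 and 15.1 RPKM in −R, 9.43 and 8.90 RPKM in +R, and 8.12 and 8.27 RPKM in R+LE (chr2:128126038-128162547, plus strand). Both −R libraries lay above the 4 libraries with RANKL. It fell by 0.63 on the log2 scale in +R (SE 0.13, adjusted p = 0.00126).

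Bid, whose product is cut by caspase-8 and links death receptors to mitochondria, was at 12.6 and 11.5 RPKM in −R, 7.61 and 6.90 RPKM in +R, and 10.2 and 8.86 RPKM in R+LE (chr6:120893119-120916824, minus strand). As for Bak1, R+LE lay between the other conditions without overlap. Bid fell by 0.69 on the log2 scale in +R (SE 0.14, adjusted p = 0.000861).

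Bad, whose protein is kept inactive by phosphorylation downstream of growth factors, was at 24.0 and 19.2 RPKM in −R, 25.1 and 25.3 RPKM in +R, and 21.1 and 16.3 RPKM in R+LE (chr19:6942562-6951905, plus strand). Both +R libraries were the highest, and −R and R+LE overlapped. The log2 difference of +R against −R was 0.22 (95% confidence interval -0.11 to 0.56, adjusted p = 0.266).

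Summed over the 5 BH3-only genes, the level was 54.0 and 50.1 RPKM in −R, 54.2 and 50.3 RPKM in +R, and 45.8 and 41.1 RPKM in R+LE. Within that sum, Pmaip1 supplied 1.95% and 3.09% in −R, 14.1% and 9.77% in +R, and 6.90% and 9.77% with LE. Bcl2l11 supplied 25.6% and 30.2% in −R and between 17.4% and 20.1% in the libraries with RANKL.

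In −R, the order by mean RPKM was Bak1, Bax, Mcl1, Bcl2l1, Bad, Bcl2l11, Bid, Bbc3, Bcl2 and Pmaip1, and of the neighbours in that order only Bbc3 and Bcl2 overlapped between libraries. In +R, Bcl2l1 stood eighth, after Pmaip1, and the libraries of these neighbours overlapped. Also in +R, Bak1 and Bax overlapped, as did Bax and Mcl1, and Bid and Pmaip1. In R+LE, Bcl2l1 stood seventh and overlapped with Bcl2l11, as did Bak1 with Bax and Pmaip1 with Bbc3. Bcl2 was the lowest of the 10 in +R and in R+LE.

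**Figure D3:**
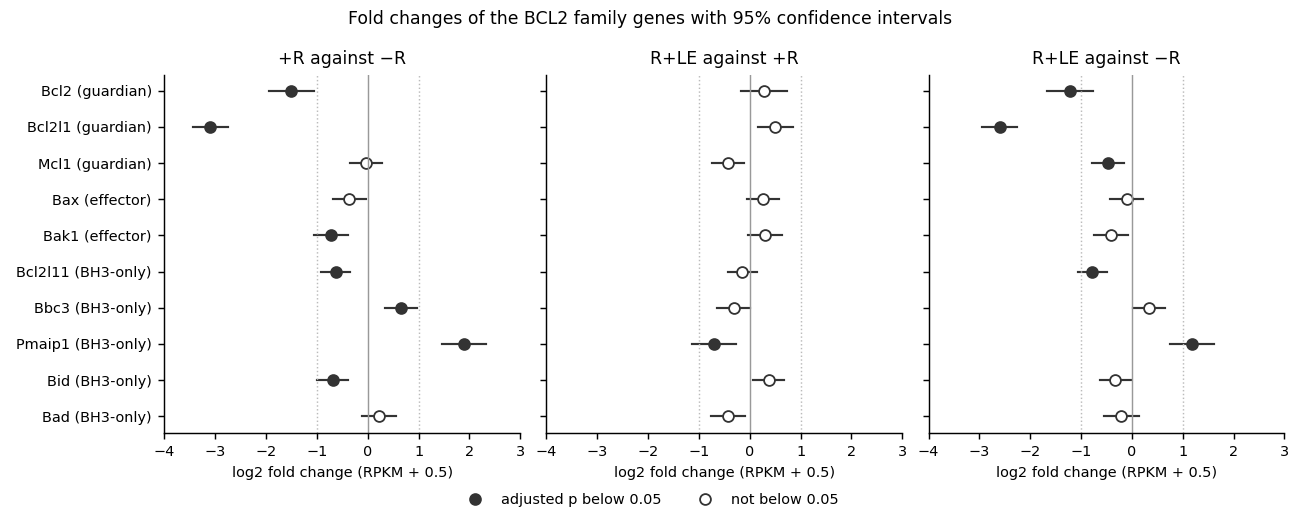
log2 fold change on the scale of RPKM + 0.5 (horizontal axes) of the 10 BCL2 family genes in 3 comparisons, with bars for the 95% confidence interval from limma; filled points have an adjusted p below 0.05 and dotted lines mark a 2-fold change. Bcl2l1 lies at -3.10 in +R against −R and at -2.60 in R+LE against −R, and in R+LE against +R the only filled point is Pmaip1, at -0.71.

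The comparison of R+LE with +R asked what the extract changes in cells that receive RANKL. Of the 10 family genes, 1 fell and 0 rose by limma, where 6.86% of all tested genes fell and 5.19% rose, and 0 changed by at least 2-fold, where 3.23% of all tested genes did. At an unadjusted p under 0.05 there were 6 of the 10, and 2707 of the 11595 tested genes. With voom on reads recovered from the RPKM values, 3 of the 10 passed. The gene that fell was Pmaip1, by 0.71 on the log2 scale (SE 0.20, adjusted p = 0.0335). Its call rests on single libraries: the difference was -0.41 without +R replicate 1 (adjusted p = 0.336) and -0.56 without R+LE replicate 1 (adjusted p = 0.151), and the adjusted p was 0.0613 and 0.0629 without −R replicate 1 and without −R replicate 2, which enter the estimate of the spread. It passed under 7 of the 17 other settings, and under median centring, quantile normalization or depth without Rn45s it did not.

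Of the other members, Bcl2l1 was nearest to the threshold on the higher side in R+LE, with a log2 difference of 0.50 (95% confidence interval 0.15 to 0.84, adjusted p = 0.0609). It passed without +R replicate 2 (0.72, adjusted p = 0.00906) and without R+LE replicate 2 (0.64, adjusted p = 0.0339), and stood at 0.28 without +R replicate 1 (adjusted p = 0.561). Mcl1 was nearest on the lower side, with a log2 difference of -0.44 (95% confidence interval -0.75 to -0.12, adjusted p = 0.0699). Bad differed by -0.43 (adjusted p = 0.101), and passed without R+LE replicate 1 (-0.61, adjusted p = 0.0197). Bid differed by 0.37 (adjusted p = 0.114), Bak1 by 0.30 (adjusted p = 0.265), Bax by 0.26 (adjusted p = 0.346) and Bcl2 by 0.28 (adjusted p = 0.499). Bbc3 differed by -0.32 (adjusted p = 0.206), and Bcl2l11 by -0.15 (95% confidence interval -0.44 to 0.13, adjusted p = 0.584).

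R+LE was also compared with −R, a contrast that shares libraries with both comparisons above. Of the 10 genes, 4 fell and 1 rose, where 19.0% of all tested genes fell and 15.3% rose, and 3 changed by at least 2-fold, where 10.3% of all tested genes did. Among all passing genes, 44.6% rose. That share was 61.0% when depth was taken from gene reads without Rn45s, a scaling that moved the median of all genes up by 0.109 on the log2 scale. Of all tested genes, 8.19% rose and 13.0% fell without −R replicate 1, and 10.2% rose and 12.3% fell without −R replicate 2. Bcl2l1 fell by 2.60 (SE 0.16, adjusted p = 9.73e-09), Bcl2 by 1.22 (SE 0.21, adjusted p = 0.00032) and Bcl2l11 by 0.78 (SE 0.13, adjusted p = 0.000305), and Pmaip1 rose by 1.19 (SE 0.20, adjusted p = 0.000323), all on the log2 scale. Mcl1 fell by 0.47 (SE 0.15, adjusted p = 0.0225), and its value was -0.34 without −R replicate 1 (adjusted p = 0.242). Bak1 was at -0.42 (adjusted p = 0.0501), and passed at -0.56 without R+LE replicate 1 (adjusted p = 0.00652). Bid was at -0.33 (adjusted p = 0.0867), Bbc3 at 0.34 (adjusted p = 0.0907), Bad at -0.21 (adjusted p = 0.344) and Bax at -0.11 (adjusted p = 0.627), which turned to 0.01 when depth was taken without Rn45s.

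Beyond the 10 genes, 16 other genes of the family were looked up, and 11 of them passed the filter. In +R against −R, 6 of these 11 rose and 1 fell (median log2 difference 0.44), beside 23.9% and 21.5% of all tested genes, and in R+LE against +R 0 rose and 3 fell by limma, beside 5.19% and 6.86%. At an unadjusted p under 0.05 there were 4 of the 11 in the latter comparison. Bcl2l15, a BCL2-like gene, went from 0.372 and 0.392 RPKM in −R to 7.70 and 8.72 RPKM in +R and 6.23 and 6.01 RPKM in R+LE, a rise of 3.30 on the log2 scale (adjusted p = 1.52e-10), but 77.1% of its counted exon bases are shared with the gene model Gm43064 on the same strand. Bmf, a BH3-only gene, was at 0.785 and 0.620 RPKM in −R, 3.70 and 3.64 RPKM in +R, and 3.66 and 2.83 RPKM in R+LE, and rose by 1.80 in +R (adjusted p = 6.39e-07). Bok, an effector-like gene, was at 0.417 and 0.314 RPKM in −R, 1.91 and 1.15 RPKM in +R, and 1.31 and 1.40 RPKM in R+LE, and rose by 1.21 (adjusted p = 0.000351). Bcl2l13 rose by 0.53 (adjusted p = 0.00674), with 9.07% of its exon bases shared with Bid on the other strand, and Bnip3l, a mitophagy receptor, rose by 0.44 (adjusted p = 0.0198). Bcl2l12 fell by 0.54 (adjusted p = 0.0102), with 23.9% of its exon bases shared with Gm15545 on the other strand. For Bnip3 the log2 difference was 0.43 (adjusted p = 0.0817), and for Bcl2l2, which codes for the guardian BCL-W, it was -0.29 (adjusted p = 0.112). Bcl2a1c, Bcl2l10, Bik, Hrk and Bcl2l14 did not pass the filter.

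The Bcl2a1 genes code for A1, a guardian induced by NF-κB, and are near-identical copies, so the reads of single copies are uncertain. Summed over the 4 copies, the level was 15.3 and 15.7 RPKM in −R, 14.8 and 13.5 RPKM in +R, and 7.31 and 4.41 RPKM in R+LE. Both R+LE libraries lay below the 4 others. Bcl2a1b, the most abundant copy, was at 12.4 and 12.9 RPKM in −R, 10.3 and 8.61 RPKM in +R, and 5.79 and 3.37 RPKM in R+LE, and fell by 1.01 on the log2 scale in R+LE against +R (adjusted p = 0.00228). Of its counted exon bases, 53.3% are shared with the gene model Gm29094 on the same strand. Bcl2a1d fell by 1.15 (adjusted p = 0.00112) and Bcl2a1a by 1.49 (adjusted p = 0.00248) in the same comparison. These 3 copies were the genes of the wider family that fell with LE. In +R against −R, Bcl2a1a rose by 1.99 (adjusted p = 3.88e-05) from 0 and 6 reads to 31 and 65 reads, whereas the log2 difference was -0.41 for Bcl2a1b (adjusted p = 0.0944) and 0.02 for Bcl2a1d (adjusted p = 0.931).

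**Figure D4:**
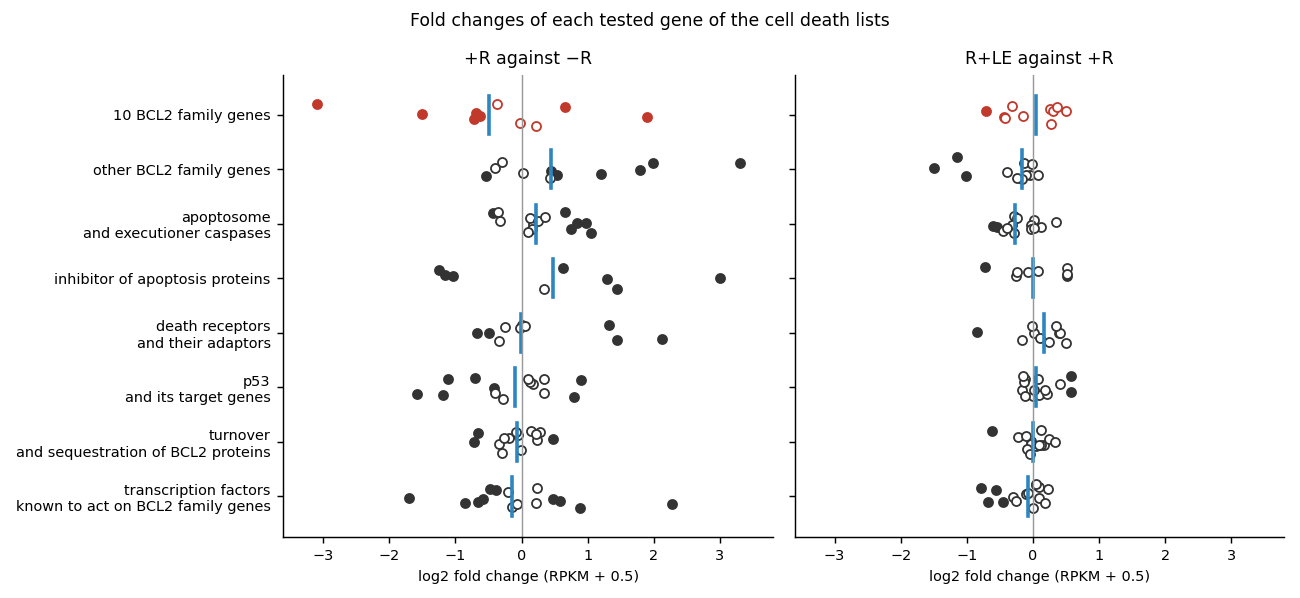
log2 fold change on the scale of RPKM + 0.5 (horizontal axes) of each tested gene of the 10 BCL2 family genes (red) and of 7 lists of the death pathway (black), in +R against −R and in R+LE against +R; filled points have an adjusted p below 0.05, blue bars are list medians, and the vertical scatter within a list has no meaning. The list medians lie between -0.50 and 0.48 in +R against −R and between -0.27 and 0.17 in R+LE against +R.

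Downstream of the mitochondria, 5 of 14 genes of the apoptosome and its caspases rose in +R against −R, beside 23.9% of all tested genes. Endog, a mitochondrial nuclease, rose by 1.04 on the log2 scale (adjusted p = 3.64e-05), with 36.7% of its exon bases shared with Spout1 on the other strand. Casp6, an executioner caspase, rose by 0.98 (adjusted p = 0.000217), Aifm1, a flavoprotein of the mitochondrial intermembrane space, by 0.84 (adjusted p = 0.000174) and Cycs, cytochrome c, by 0.74 (adjusted p = 0.00245). In R+LE against +R, Cycs fell by 0.60 (adjusted p = 0.0322) and Htra2, a mitochondrial protease, by 0.55 (adjusted p = 0.0245). The other 12 did not pass, where 6.86% of all tested genes fell and 5.19% rose. Htra2 shares 31% of its exon bases with Loxl3 and 2.96% with Aup1 on the other strand, which were at 5.68 to 8.31 RPKM and 61.7 to 117 RPKM.

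The inhibitor of apoptosis proteins block caspases or act in NF-κB signalling, and 4 of 8 rose and 3 fell in +R against −R, beside 23.9% and 21.5% of all tested genes. Birc3, which codes for cIAP2 and is an NF-κB target, was at 5.16 and 6.39 RPKM in −R, 51.8 and 47.7 RPKM in +R, and 41.9 and 42.2 RPKM in R+LE, a rise of 3.01 on the log2 scale (adjusted p = 2.47e-10). Birc2, which codes for cIAP1, rose by 1.45 (adjusted p = 6.43e-07) and Xiap, a direct caspase inhibitor, by 0.62 (adjusted p = 0.00163). Birc5, known foremost as a gene of cell division, rose by 1.29 (adjusted p = 4.3e-06), as did all 5 cell division markers. Naip5 fell by 1.25 (adjusted p = 2.73e-05), Naip2 by 1.15 (adjusted p = 8.38e-06) and Naip6 by 1.04 (adjusted p = 0.000109); these sense bacterial proteins for the inflammasome and are near copies of each other. With LE, in R+LE against +R, Birc2 fell by 0.73 (adjusted p = 0.00265) and Naip2 rose by 0.51 (adjusted p = 0.0289).

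Of 10 death receptors and adaptors, 3 rose and 2 fell in +R against −R, which is near the 23.9% and 21.5% of all tested genes. Fas was at 0.900 and 1.44 RPKM in −R, 7.93 and 5.67 RPKM in +R, and 9.43 and 8.48 RPKM in R+LE, a rise of 2.13 on the log2 scale (adjusted p = 1.97e-07). Tnfaip3, an NF-κB target and inhibitor, rose by 1.44 (adjusted p = 1.32e-06) and Ripk3, the kinase of necroptosis, by 1.32 (adjusted p = 7.18e-06). Tnfrsf1a, the TNF receptor, fell by 0.67 (adjusted p = 0.00115) and Fadd, the adaptor of Fas, by 0.50 (adjusted p = 0.0101). In R+LE against +R only Tnfaip3 passed, with a fall of 0.84 (adjusted p = 0.00135), where 6.86% of all tested genes fell and 5.19% rose.

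Bax, Bbc3 and Pmaip1 are p53 targets, and 14 further genes of that pathway passed the filter, of which 2 rose and 5 fell in +R against −R, beside 23.9% and 21.5% of all tested genes. Trp53 itself rose by 0.90 on the log2 scale (adjusted p = 9.04e-05), and Mdm4, an inhibitor of p53, by 0.80 (adjusted p = 0.006). The p53 targets Gadd45a, Mdm2, Cdkn1a and Sesn1 fell by 1.58 (adjusted p = 3.22e-06), 1.19 (adjusted p = 1e-05), 1.11 (adjusted p = 2.04e-05) and 0.71 (adjusted p = 0.00284). Gadd45a was at 3.74 and 4.41 RPKM in −R and at 1.04 and 1.02 RPKM in +R. It shares 19.5% of its exon bases with E230016M11Rik on the other strand, which was at 0.186 to 0.85 RPKM. Cdkn1a, which codes for the cell cycle inhibitor p21, was at 149 and 148 RPKM in −R, 69.0 and 67.4 RPKM in +R, and 110 and 94.4 RPKM in R+LE. With LE added to RANKL, Mdm2 rose by 0.58 (adjusted p = 0.0171) and Cdkn1a by 0.57 (adjusted p = 0.0194).

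Of 14 genes for turnover or binding of BCL2 proteins, such as ubiquitin ligases and the 14-3-3 proteins that hold BAD, 1 rose and 2 fell in +R against −R, below the 23.9% and 21.5% of all tested genes. Cblb, a ubiquitin ligase of the CBL group, which is known to act on BIM in osteoclasts, fell by 0.71 on the log2 scale in +R (adjusted p = 0.0011) and by 0.62 in R+LE against +R (adjusted p = 0.0119). Cbl, of the same group, did not pass in either comparison, at -0.01 (adjusted p = 0.961) and -0.04 (adjusted p = 0.939). Dynll2, which codes for the light chain that tethers BMF, fell by 0.65 (adjusted p = 0.00164), and Huwe1, a ligase of MCL1, rose by 0.48 (adjusted p = 0.0484). Of 15 transcription factors known to act on the family, 4 rose, near the 23.9% of all tested genes, and 6 fell in +R, beside 21.5%. Relb rose by 2.27 (adjusted p = 5.25e-09), Myc by 0.89 (adjusted p = 8.08e-05), Nfkb1 by 0.58 (adjusted p = 0.00239) and Mitf, a factor of osteoclast genes, by 0.48 (adjusted p = 0.00873). Jun fell by 1.71 (adjusted p = 9.06e-08), Ddit3, which codes for the stress factor CHOP, by 0.85 (adjusted p = 0.000449), Runx1 by 0.65 (adjusted p = 0.00132) and Stat5b by 0.58 (adjusted p = 0.00235). Ddit3, at 3.56 to 13.4 RPKM, shares 7.81% of its exon bases with Mars on the other strand, which was at 14.8 to 32.1 RPKM. In R+LE against +R, 4 of the 15 fell and 0 rose, beside 6.86% and 5.19% of all tested genes. Those that fell were Mitf by 0.79 (adjusted p = 0.00105), Ddit3 by 0.68 (adjusted p = 0.0103), Atf4 by 0.56 (adjusted p = 0.0201) and Relb by 0.46 (adjusted p = 0.0493).

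In R+LE against −R, the counts of the 7 lists were 3 risen and 3 fallen of 11 other family genes, 3 and 0 of 14 apoptosome and caspase genes, 4 and 3 of 8 inhibitors of apoptosis, 4 and 1 of 10 death receptors and adaptors, 2 and 5 of 14 p53 genes, 0 and 1 of 14 turnover genes, and 2 and 4 of 15 transcription factors, beside 15.3% risen and 19.0% fallen of all tested genes. Bcl2l15 rose by 2.91 on the log2 scale (adjusted p = 1.23e-09), Birc3 by 2.77 (adjusted p = 1.27e-09) and Fas by 2.52 (adjusted p = 5.8e-08). Relb rose by 1.81 (adjusted p = 1.17e-07) and Ripk3 by 1.67 (adjusted p = 1.09e-06). Jun fell by 1.79 (adjusted p = 9.93e-08), Ddit3 by 1.53 (adjusted p = 2.46e-06), Bcl2a1b by 1.42 (adjusted p = 3.23e-05) and Cblb by 1.33 (adjusted p = 4.98e-06).

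For the 3 members that changed by at least 2-fold, the tested genes with the most similar profile were found by Pearson's r of log2(RPKM + 0.5) over the 6 libraries, as a description. With 3 conditions high values of r are common: 914 genes reached 0.95 with Bcl2l1, 753 with Bcl2 and 374 with Pmaip1. Nearest to Bcl2l1 were Mylip (r = 0.9996), Gpr157 (r = 0.9991) and Irf8 (r = 0.9990), a macrophage transcription factor whose mean was 66.0 RPKM in −R, 4.64 RPKM after RANKL and 7.32 RPKM with LE. Nearest to Bcl2 were Nrcam (r = 0.9971), Tgfbrap1 (r = 0.9969) and Rbms2 (r = 0.9959). Nearest to Pmaip1 were Nox1 (r = 0.9983), Pdap1 (r = 0.9933) and Mbtps1 (r = 0.9921). Nox1, an NADPH oxidase, averaged 1.05 RPKM in −R, 3.66 RPKM after RANKL and 2.36 RPKM with LE.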

How the data were processed

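RNA of BMMs was sequenced by the authors on an Illumina instrument with paired reads of 100 bases. The methods of the study name TopHat for alignment, whereas the submitters' processing notes list HISAT2, HOMER and DESeq2, without versions. The build is mm10. HOMER counted reads on the exons of 1 transcript per gene on either strand, and the authors deposited RPKM values, titled FPKM in the table. Reads from overlapping genes on opposite strands are therefore not separated.

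The 10 members and all lists were chosen with earlier results of these data known. Libraries were grouped by the condition in the labels. limma 3.58.1 in R 4.3.3 fitted the 3 groups together on log2(RPKM + 0.5) with a variance trend, for the 11595 genes that averaged 0.5 RPKM or more, and adjusted p-values by Benjamini-Hochberg over all of them. The 0.5 added understates changes of low genes. A two-sided exact permutation of 2 against 2 libraries cannot give a p below 0.333. The scripts were tested on simulated data. Reads were recovered as RPKM times length divided by the step of 1 read, and at least 99.96% of values were whole within 0.1 read. These values also gave the depth. Of 26 gene symbols turned into dates, 26 were restored from transcript identifiers.

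Named were all members, every other family gene, for each list at most 4 passing genes per comparison and direction, taken by size of change, and for members with at least 2-fold change the 3 most similar genes. Cbl was also named, beside Cblb of the same group. Some genes of the lists are not reported here. Motifs were searched in RefSeq promoters. Alternatives were other added values, filters, scalings, fits, a replicate block, voom on recovered reads, and leaving out each library. Depth from gene reads without Rn45s was added after the data were seen.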

Additional observations from a re-analysis of the deposited data

How the results depend on the processing

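In +R against −R, the 7 passing members passed under all 17 alternatives. The log2 difference of Mcl1 in that comparison was 0.047 with depth from gene reads without Rn45s, an alternative chosen after seeing the data, and between -0.16 and 0.10 when single libraries were left out. For Bax in R+LE against −R it was 0.015 without Rn45s. In R+LE against +R, the count of passing members was 1, and became 0 with no filter, with no variance trend or with only the compared groups fitted, 2 with a minimum mean of 1 RPKM (Bcl2l1, Pmaip1), 2 with median centring or with depth without Rn45s (Bcl2l1, Bid), 3 with quantile normalization (Bax, Bak1, Bid), and 3 with voom on recovered reads (Bcl2l1, Mcl1, Pmaip1). It ranged from 0 to 2 when single libraries were left out. With the replicate number as a block it was 4 (Bcl2l1, Mcl1, Pmaip1, Bad). The labels give only a shared number: deviations of same-numbered libraries correlated at -0.046 between −R and +R, 0.107 between −R and R+LE and 0.249 between +R and R+LE, so the libraries were not treated as paired. Of all genes, 1397 passed in R+LE against +R, and 581 with no filter, where the 18427 genes not at 0 in every library were tested. The count of members changed at least 2-fold ranged from 0 to 1 in R+LE against +R when single libraries were left out, and was 1 in place of 3 in R+LE against −R with 1 RPKM added before the logarithm. When single libraries were left out, the count of all genes passing in R+LE against −R ranged from 2455, without −R replicate 1, to 4047, and was 2611 without −R replicate 2. Under the other alternatives it reached 4749, with depth without Rn45s. The causes of these shifts were not tested. With 2 libraries in each group, differences under about 0.3 on the log2 scale lay within the confidence intervals of most members, and for Bcl2 the 25 and 35 reads in +R limit the precision.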
